A study of Mus musculus with 4 samples.

Results

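The genes described are 47 Nrf2 targets and antioxidant enzymes, followed gene by gene over the cell types and genotypes of a single-cell RNA-sequencing study of mouse pancreatic islets. They were chosen by name, and all 47 were found among the 32285 genes of the deposited matrices. The islets came from C57BL/6 mice, either Malat1-null (labelled MALAT1-/-, lacking the long nuclear RNA Malat1) or wild type, were kept in RPMI medium with 10% serum, and were given TCDD, a dioxin and strong agonist of the aryl hydrocarbon receptor, or DMSO. Each of the 4 combinations is 1 library. Malat1-null TCDD islets are set here against wild-type TCDD islets, and the libraries with DMSO were not analysed here. What TCDD itself did was therefore not measured. Age, TCDD dose and exposure time, and the number of animals pooled per library are not in the labels. With 1 library per group there is no spread between animals, no test and no p-value: the intervals given are exact 95% intervals of counting error, and the genotype cannot be told apart from any other difference between the 2 preparations.

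The Malat1-null library held 134950186 UMIs (unique molecular identifiers, each standing for 1 captured transcript) and 3198 barcodes with at least 1000 UMIs, and the wild-type library 81872519 UMIs and 2166 such barcodes, of which 2904 and 2080 were used. Although the labels give the cell type as beta cell, whole islets were dissociated, and 10 types were recognised. The types are called "like" because clusters of barcodes were named from marker lists. Beta-like cells numbered 1784 Malat1-null and 913 wild-type barcodes, with 11 of 11 beta markers at 20 CPM (UMI counts per summed total, adjusted with TMM factors, so that values of a cell type need not add up to a fixed total) or more in each library. Alpha-like cells numbered 73 and 31, delta-like 56 and 25, PP-like 28 and 28 (a cluster led by Ghrl, the ghrelin gene), endothelial-like 39 and 87, B cell-like 244 and 160, T or NK-like 157 and 297, and acinar-like 42 and 266. The ductal-like cells (17 and 134) and mesenchymal-like cells (17 and 26) fell short of the 20 barcodes needed for the comparison between types in the Malat1-null library. Malat1 itself stood at 0.508 CPM in Malat1-null and 15420 CPM in wild-type beta-like cells, as the labels say. Cyp1a1, the classic target of the aryl hydrocarbon receptor, was at 3243 CPM in Malat1-null and 3652 CPM in wild-type endothelial-like cells. Beta-like cells held 0.117 CPM of it in Malat1-null and 0.276 CPM in wild type. RNA from broken cells made up an estimated 39.3% of the UMIs of Malat1-null acinar-like cells and 11.3% of wild-type ones, against 0.568% and 0.184% in beta-like cells.

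Nrf2, encoded by Nfe2l2, is a transcription factor that Keap1 holds in the cytoplasm and hands over for degradation, and electrophiles or oxidants that modify Keap1 free it. Freed Nrf2 pairs with small Maf proteins on antioxidant response elements and raises genes for glutathione and NADPH supply, thioredoxin recycling and detoxification. Hydrogen peroxide is then removed by catalase in peroxisomes, and by glutathione peroxidases and peroxiredoxins in the cytosol, mitochondria and endoplasmic reticulum. Beta cells have long been described as poor in catalase and glutathione peroxidase.

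The core letters of an antioxidant response element, TGACNNNGC, were searched on both strands in promoter windows from RefSeq (GRCm38.p6) of 250 bases before to 50 bases after a start site, which are given for 39 of the 47 genes. The letters lie in the windows of 10 of these genes (25.6%), against 3781 of 27025 genes in the whole promoter table (14.0%). The windows of 6 genes that recur in the results are shown because these genes serve glutathione, NADPH, thioredoxin and peroxide metabolism. Each stretch is written 5′ to 3′ on the strand that carries the motif, with the motif in capitals and up to 10 bases of flank in lower case.
Gclm: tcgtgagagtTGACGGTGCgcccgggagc
Txnrd1: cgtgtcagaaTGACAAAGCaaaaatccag
Srxn1: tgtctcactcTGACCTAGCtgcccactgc
Pgd: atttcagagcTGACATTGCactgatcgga
Me1: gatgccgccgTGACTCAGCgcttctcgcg
Prdx1: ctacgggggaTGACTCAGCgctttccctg
The stretch of Gclm lies at chr3:122245413-122245441 on the minus strand, that of Txnrd1 at chr10:82859104-82859132 (minus) and that of Srxn1 at chr2:152105542-152105570 (minus). Those of Pgd, Me1 and Prdx1 lie at chr4:149166061-149166089, chr9:86695902-86695930 and chr4:116685456-116685484, all on the minus strand. In Me1 and Prdx1 the first letters also spell TGACTCA, the site of AP-1 factors. The motif was also found in the windows of Nfe2l2, G6pdx, Mgst1 and Sod1. A match of letters is a description and says nothing of binding.

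**Figure D1:**
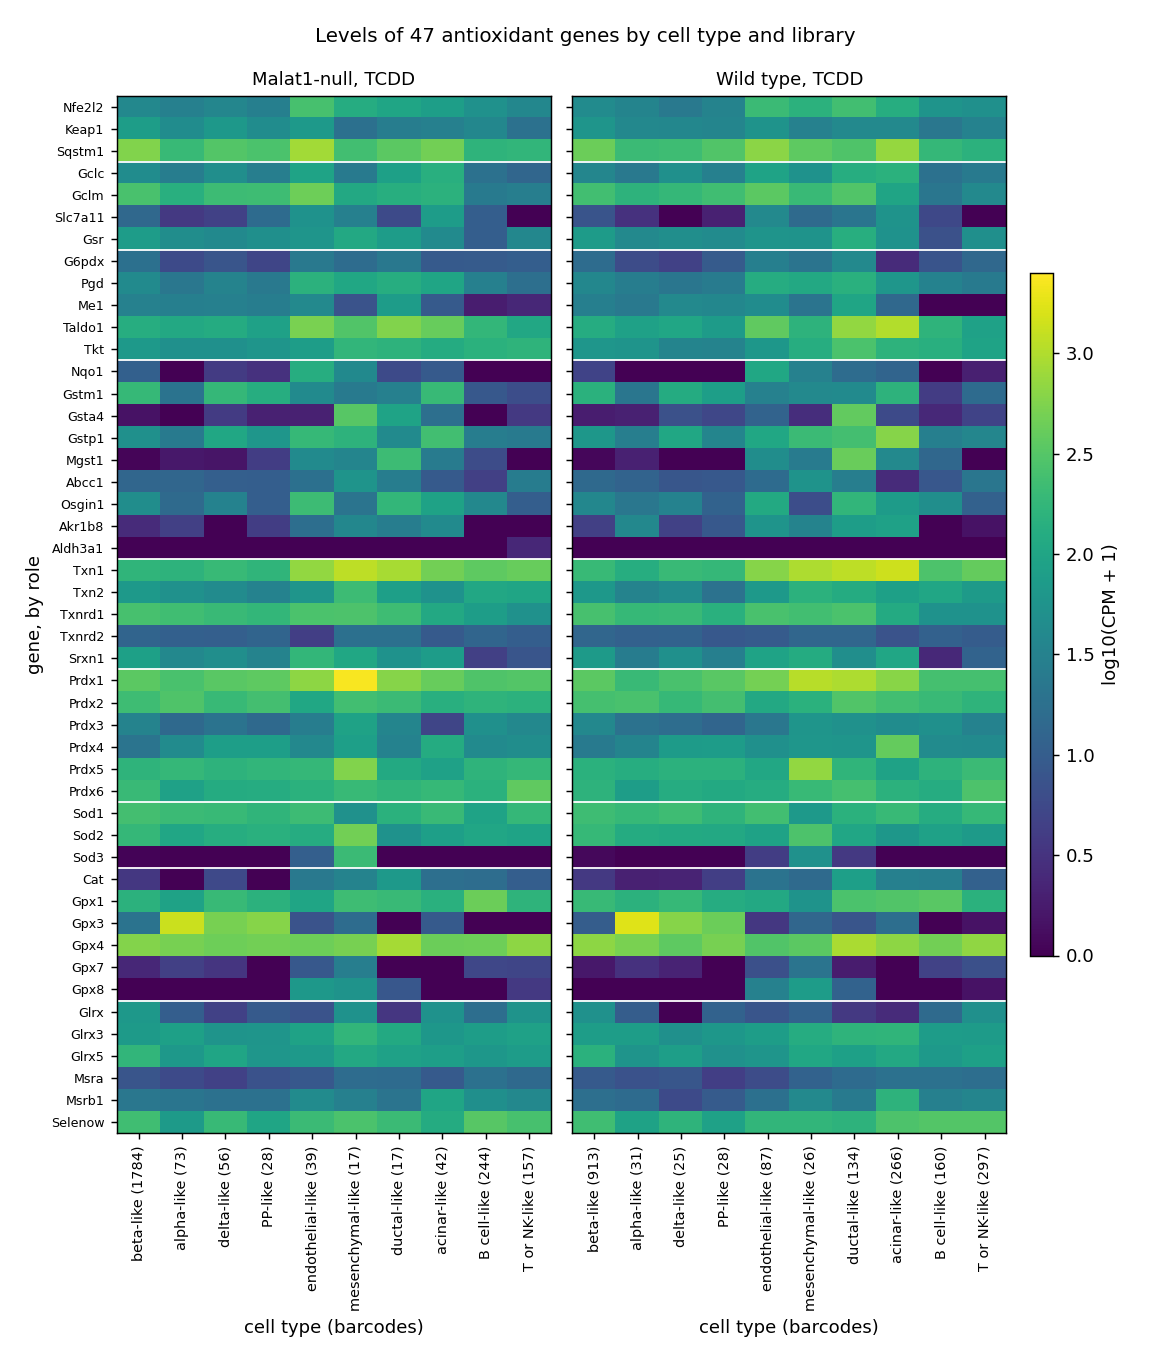
Levels of the 47 genes as log10 of CPM + 1 (colour) in each cell type (columns, with the number of barcodes) of the Malat1-null (left) and wild-type (right) TCDD library, with genes grouped by role between white lines. Cat is dark in all 4 hormone cell types, Gpx3 is bright in alpha-like, delta-like and PP-like cells, and Nqo1, Mgst1, Gpx8 and Sod3 stand out in endothelial-like, ductal-like or mesenchymal-like cells.

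Catalase mRNA was scarce in every hormone-producing cell type, not in beta-like cells alone. Cat (mm10 chr2:103453849-103485160, minus strand), the peroxisomal enzyme that splits hydrogen peroxide into water and oxygen, was at 2.54 CPM (2.12 to 3.02) in Malat1-null and 2.68 CPM (2.17 to 3.27) in wild-type beta-like cells. In the Malat1-null library it had no UMI in alpha-like or PP-like cells and was at 4.64 CPM in delta-like cells. In the wild-type library it was at 1.02 CPM in alpha-like, 1.201 CPM in delta-like and 3.22 CPM in PP-like cells, which rests on 5 UMIs in all. Free RNA would account for 0.0729 CPM of the Malat1-null and 0.0243 CPM of the wild-type beta-like level. Beta-like cells thus had 1.33 times the Cat level of the pooled alpha-like, delta-like and PP-like cells in the Malat1-null library (0.654 to 3.14) and 1.47 times in the wild-type library (0.609 to 4.63), intervals that take in 1 and leave differences up to several-fold undetected at this depth.

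Every non-hormone type had more Cat than beta-like cells in both libraries. Ductal-like cells had the highest level, 67.9 CPM in Malat1-null and 81.5 CPM in wild type, or 26.7 times (17.1 to 40.4) and 30.4 times (24.4 to 38.2) that of beta-like cells. Endothelial-like cells were at 22.6 CPM in Malat1-null and 18.8 CPM in wild type, and mesenchymal-like cells at 31.8 and 14.1 CPM. Acinar-like cells stood at 16.6 and 29.1 CPM, B cell-like at 15.2 and 27.5 CPM, and T or NK-like at 9.48 and 10.2 CPM. Against the median of the other types, beta-like cells had a log2 difference of -1.57 in the Malat1-null and -2.04 in the wild-type library (on log2 of CPM + 1). That median depends on how many hormone types are among the others: without acinar-like, B cell-like and T or NK-like types, a choice made after the data were seen, the difference was 0.09 in Malat1-null and -1.39 in wild type. Cat lies under the 20 CPM at which a gene counted as tested. Thinned to 5000 UMIs per barcode, 0.635% of 1732 Malat1-null and 1.12% of 895 wild-type beta-like barcodes had a Cat UMI (6.28% and 9.09% before thinning). Among ductal-like barcodes the thinned shares were 26.7% of 15 and 33.3% of 132 (58.8% and 77.6% before thinning).

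The glutathione peroxidases did not share 1 pattern. Gpx1, the main cytosolic and mitochondrial enzyme, was at 152 CPM in Malat1-null and 194.6 CPM in wild-type beta-like cells, a log2 difference of 0.02 and 0.34 from the median of the other types. Its order was not low in beta-like cells: endothelial-like cells were below them in both libraries (100.2 and 110.6 CPM) and B cell-like cells were highest in both (429.5 and 335.6 CPM). With total-count scaling the same differences were -0.77 and -0.41, so the direction for Gpx1 turns with the scaling, and in Malat1-null it was the same under 4 of the 11 alternatives. Gpx4, which reduces lipid hydroperoxides in membranes, was at 583 and 673 CPM in beta-like cells, with a log2 difference of 0.37 in Malat1-null and 0.41 in wild type. Gpx7 and Gpx8, peroxidases of the endoplasmic reticulum, were nearly or wholly missing from beta-like cells. Gpx7 had 1.37 CPM in Malat1-null and 0.636 CPM in wild type. It was scarce elsewhere too, with medians of the other types of 3.37 and 2.04 CPM. The pooled alpha-like, delta-like and PP-like cells held 2.15 and 1.09 CPM. The intervals of the beta-like ratio to these (0.316 to 1.45 and 0.176 to 3.02) take in 1. Gpx8 had no UMI in beta-like, alpha-like, delta-like or PP-like cells of either library, where 3 counts in the beta-like sum would be 0.0586 CPM in Malat1-null and 0.0829 CPM in wild type, while mesenchymal-like cells held 55.2 and 75.9 CPM and endothelial-like cells 63.6 and 29.7 CPM.

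Gpx3 set the other hormone cells apart from beta-like cells. Gpx3 (mm10 chr11:54902453-54910377, plus strand), a secreted glutathione peroxidase, was at 1322 CPM in Malat1-null and 1737 CPM in wild-type alpha-like cells. Delta-like cells had 496.5 and 609 CPM and PP-like cells 599 and 425.5 CPM. Beta-like cells held 18.5 CPM in Malat1-null and 8.98 CPM in wild type, which is 0.0228 times (0.0212 to 0.0245) and 0.00946 times (0.00840 to 0.0106) the level of the 3 other hormone types pooled. All 73 Malat1-null and 31 wild-type alpha-like barcodes had at least 1 Gpx3 UMI. In the non-hormone types the levels were between 0 and 16.2 CPM.

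**Figure D2:**
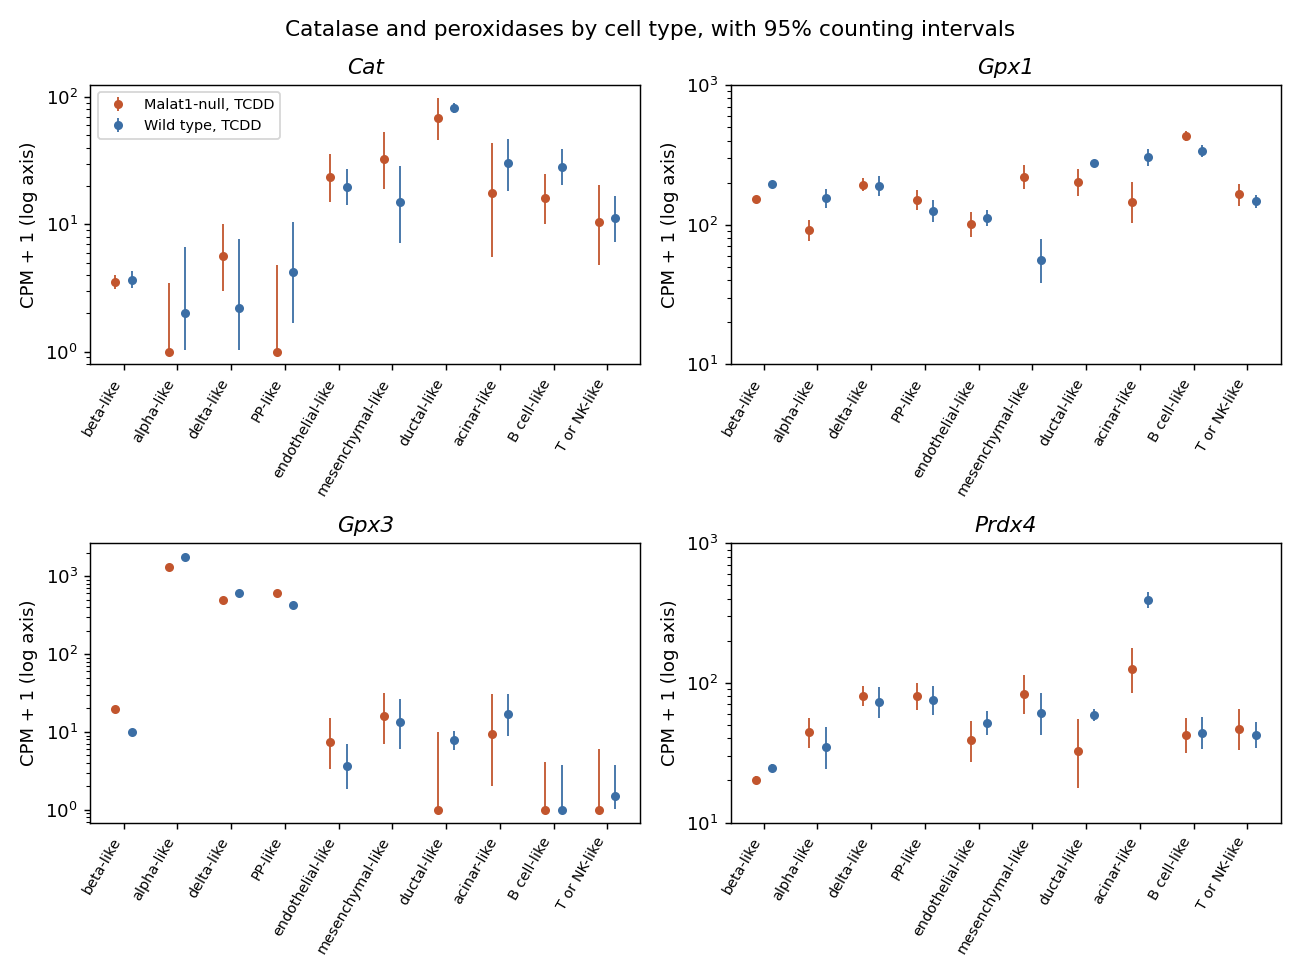
Levels of Cat, Gpx1, Gpx3 and Prdx4 as CPM + 1 on a log axis (points) with exact 95% counting intervals (bars), in each cell type of the Malat1-null (orange) and wild-type (blue) TCDD libraries. Cat is below 5 CPM in the 4 hormone types of both libraries, Gpx1 in beta-like cells lies within the range of the other types, Gpx3 is above 400 CPM in alpha-like, delta-like and PP-like cells, and Prdx4 is lowest in beta-like cells.

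Prdx4 was the one tested gene of the 47 that was at least 2-fold lower in beta-like cells than in the median of the other types in both libraries. Of the 32 genes tested, 1 was lower (background 3.25% of 5112 tested genes) and 1, Gstm1, was higher (background 11.8%), so neither count stands above the background. Within a single library, 5 were 2-fold higher in Malat1-null (background 14.9%) and 1 in wild type (background 15.6%), while 2 were 2-fold lower in Malat1-null (background 4.05%) and 1 in wild type (background 7.04%). The median log2 difference was 0.41 and 0.25 for the 32 genes, against 0.27 and 0.20 for all tested genes, and total-count scaling lowered the median of all genes to -0.65 and -0.57. Prdx4 (mm10 chrX:155323918-155340754, minus strand), the peroxiredoxin of the endoplasmic reticulum, which uses hydrogen peroxide to drive disulfide formation, was at 19.3 CPM (18.1 to 20.5) in Malat1-null and 23.5 CPM (21.9 to 25.1) in wild-type beta-like cells. The medians of the other types were 46.1 and 58.0 CPM, a log2 difference of -1.22 and -1.27. All other types were above beta-like cells in both libraries, though for the 17 Malat1-null ductal-like barcodes (31.5 CPM) the interval of the beta-like over ductal-like ratio (0.356 to 1.15) takes in 1. Delta-like cells held 80.1 and 72.0 CPM and PP-like cells 79.2 and 74.1 CPM, while the nearest type in wild type, alpha-like cells, was at 33.7 CPM with an interval of the beta-like over alpha-like ratio (0.492 to 1.02) that takes in 1. Acinar-like cells, which secrete digestive enzymes, held the most, 124 CPM in Malat1-null and 392 CPM in wild type. The direction for Prdx4 was the same under all 11 alternatives that recomputed it, between -2.25 and -0.88 in Malat1-null and between -2.15 and -0.96 in wild type. It was no longer 2-fold in both libraries with a minimum of 5000 UMIs per barcode or with scaling that left out hormone, enzyme, mitochondrial and Malat1 UMIs.

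The other peroxiredoxins were near the median of the other types in beta-like cells. Prdx1, a cytosolic enzyme, was at 343 CPM in Malat1-null and 353 CPM in wild type, a log2 difference of 0.03 and 0.05, and was highest in mesenchymal-like cells (2324 and 1075 CPM). The log2 differences of the cytosolic Prdx2 and of the mitochondrial Prdx3 were 0.46 and 0.75 in Malat1-null and 0.31 and 0.26 in wild type. Those of Prdx5 and of Prdx6, which also acts on phospholipid peroxides, were -0.08 and 0.44 in Malat1-null and -0.03 and 0.30 in wild type. Among the superoxide dismutases, which turn superoxide into hydrogen peroxide, the mitochondrial Sod2 was at 185 and 189 CPM in beta-like cells, a log2 difference of 0.86 in Malat1-null and 0.90 in wild type that was -0.32 and -0.01 at its lowest among the alternatives. The cytosolic Sod1 was at 240 and 221 CPM, and the extracellular Sod3 at 0.0782 and 0.166 CPM, against 206 and 51.2 CPM in mesenchymal-like cells.

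Among types with at least 20 barcodes, Glrx, Glrx5 and Keap1 had their highest level in beta-like cells of both libraries. This order is given with TMM scaling only, and leaves out Malat1-null ductal-like and mesenchymal-like cells. Glrx, the cytosolic glutaredoxin that removes glutathione from protein thiols, was at 64.2 CPM in Malat1-null and 51.4 CPM in wild-type beta-like cells, against 54.2 and 49.7 CPM in T or NK-like cells, which did not differ from them beyond counting error (ratio 1.18, 0.868 to 1.66, and 1.03, 0.847 to 1.28). Against the pooled alpha-like, delta-like and PP-like cells Glrx was 9.59 times as high (6.62 to 14.4) in Malat1-null and 7.42 times (4.74 to 12.4) in wild type. Glrx5, which serves iron-sulfur cluster assembly in mitochondria, had 174 CPM in Malat1-null and 146 CPM in wild-type beta-like cells, 2.24 times (2.01 to 2.52) and 2.36 times (2.03 to 2.77) the pooled level of the other hormone types. These pooled ratios were computed with TMM scaling only, and their intervals leave out the choice of scaling. Total-count scaling lowered the median log2 difference of all genes from the other types from 0.27 to -0.65 in Malat1-null and from 0.20 to -0.57 in wild type. Against the median of the other types, the log2 differences were 2.64 and 2.36 for Glrx, which averaged under 20 CPM over types, and 1.32 and 0.86 for Glrx5. Both were above 0 under the 11 alternatives, though Glrx5 was at 0.26 in Malat1-null and 0.19 in wild type at its lowest. A cytosolic relative, Glrx3, lay at -0.17 in Malat1-null and 0.01 in wild type. Keap1 was at 77.4 CPM in Malat1-null and 57.8 CPM in wild-type beta-like cells, against 66.8 and 55.3 CPM in endothelial-like cells, from which it did not differ beyond counting error (ratio 1.16, 0.901 to 1.51, and 1.05, 0.860 to 1.28). Its log2 difference of 0.81 and 0.67 from the median was negative under 1 of the 11 alternatives in wild type (-0.28).

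Gstm1 (mm10 chr3:108012255-108017973, minus strand), a glutathione S-transferase, was at 187 CPM in Malat1-null and 148.5 CPM in wild-type beta-like cells, against medians of 40.9 and 38.8 CPM in the other types, a log2 difference of 2.16 and 1.91. Its high level was shared: acinar-like cells held 194 and 157 CPM and delta-like cells 184.5 and 124 CPM, with intervals of the ratio that take in 1. Alpha-like cells, at 18.9 and 20.4 CPM, were far below. Its direction held under the 11 alternatives, with 0.04 as the lowest value in Malat1-null, at the highest UMI minimum. At that minimum and with total-count scaling it was no longer 2-fold higher in both libraries. How reads that match several genes of the glutathione S-transferase family were counted is not given in the sources used here, so Gstm1, Gstp1 and Gsta4 levels may hold reads of close relatives.

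Thioredoxin itself was lower in beta-like cells than in most types, and its reductase was not. Txn1, the cytosolic thioredoxin, was at 169 CPM in Malat1-null and 196 CPM in wild-type beta-like cells, against 897 and 1144 CPM in ductal-like and 1163 and 955 CPM in mesenchymal-like cells, a log2 difference of -1.08 and -0.998 from the median of the other types, the wild-type value just short of 2-fold. The other hormone cells were also low, at 175 CPM pooled in Malat1-null and 171 CPM in wild type, and beta-like cells had 0.966 times (0.896 to 1.04) and 1.15 times (1.05 to 1.26) that level. Txnrd1, which recycles thioredoxin with NADPH, was at 255 and 257 CPM in beta-like cells, a log2 difference of 0.54 and 0.43. Srxn1, sulfiredoxin, which repairs over-oxidised peroxiredoxins, was at 84.6 CPM in Malat1-null and 69.9 CPM in wild type, 2.12 times (1.81 to 2.49) and 2.08 times (1.69 to 2.59) the pooled level of the other hormone cells. The pooled ratios of Txn1 and Srxn1 were likewise computed with TMM scaling only. Against the median of the other types, Srxn1 had a log2 difference of 1.14 in Malat1-null and 0.57 in wild type. At its lowest among the alternatives that difference was -0.01 and 0.30. B cell-like cells held 3.39 and 1.48 CPM of Srxn1. The mitochondrial pair Txn2 and Txnrd2 were at 66.1 and 11.5 CPM in Malat1-null and 63.5 and 12.1 CPM in wild-type beta-like cells.

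Among the glutathione genes, Gclm, the modifier subunit of the rate-limiting enzyme of glutathione synthesis, was at 264 CPM in Malat1-null and 232 CPM in wild-type beta-like cells, with a log2 difference from the other types of 0.78 and 0.37. Gclc, the catalytic subunit, was at 44.1 and 35.2 CPM, with differences of 0.65 in Malat1-null and -0.51 in wild type, and acinar-like cells held the most (141 and 147 CPM). Gsr, which regenerates glutathione, was at 75.5 and 71.8 CPM, differences of 0.85 and 0.55. The genes of NADPH supply were near the median: the log2 differences of Pgd, Me1, Taldo1 and Tkt lay between -0.19 and 0.47 in Malat1-null and between -0.63 and 0.33 in wild type. G6pdx, the entry enzyme of the pentose phosphate pathway, was under the tested minimum, at 17.04 and 14.98 CPM. Sqstm1, the autophagy receptor that also draws Keap1 away from Nrf2, was at 568 CPM in Malat1-null and 438.5 CPM in wild-type beta-like cells, a log2 difference of 1.05 and 0.61, and was exceeded in both libraries by endothelial-like cells (845 and 645 CPM) and in wild type also by acinar-like cells (733 CPM).

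Several detoxification genes were highest in types other than beta-like cells. In all, 14 of the 47 genes were at least 4 times as high in 1 type as the median of all types in both libraries, not always in the same type. The share of all genes that pass this limit was not counted, so the 14 are a description and not a result about the members. Nqo1, a quinone reductase that Nrf2 and the aryl hydrocarbon receptor both induce, was highest in endothelial-like cells (131 CPM in Malat1-null, 104 CPM in wild type) and was at 10.1 and 3.81 CPM in beta-like cells, with no UMI in alpha-like or B cell-like cells of either library. Mgst1, a microsomal glutathione transferase, was at 213 and 416 CPM in ductal-like cells and at 0.117 and 0.138 CPM in beta-like cells. Gsta4, which conjugates lipid aldehydes, was at 92.1 and 380 CPM in ductal-like cells and at 0.449 and 0.884 CPM in beta-like cells. In mesenchymal-like cells it was at 325 CPM in Malat1-null and 1.76 CPM in wild type, but the Malat1-null value rests on 6 of 17 barcodes, 1 of which gave 50.3% of its 153 UMIs. Nfe2l2 was highest among types with 20 barcodes in endothelial-like cells of the Malat1-null library (256 CPM) and in ductal-like cells of the wild-type library (233 CPM), against 37.8 and 43.1 CPM in beta-like cells. Osgin1, an oxidative-stress-induced growth inhibitor, had the same order, with 210 CPM and 174 CPM in those types and 45.1 and 36.3 CPM in beta-like cells. Slc7a11, the cystine importer, was at 74.5 and 55.0 CPM in acinar-like and 52.8 and 38.6 CPM in endothelial-like cells, against 13.0 and 6.55 CPM in beta-like cells. The Malat1-null acinar-like value rests on 5 of 42 barcodes, 1 of which gave 61.1% of its 18 UMIs. Aldh3a1, an aldehyde dehydrogenase that dioxin induces in rat liver, had 2 UMIs in Malat1-null and none in wild-type beta-like cells. Gstp1, a glutathione S-transferase, was highest in acinar-like cells (232 and 613 CPM), against 49.2 and 61.2 CPM in beta-like cells.

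The remaining members are Abcc1, Msra, Msrb1 and Selenow. Abcc1, a pump for glutathione conjugates, was at 12.1 CPM in Malat1-null and 13.4 CPM in wild-type beta-like cells, with mesenchymal-like cells highest (57.3 and 54.7 CPM). The methionine sulfoxide reductases Msra and Msrb1, which repair oxidised methionine, were at 6.84 and 21.1 CPM in Malat1-null and 8.21 and 16.6 CPM in wild-type beta-like cells. Acinar-like cells had the most Msrb1, 99.3 CPM in Malat1-null and 155 CPM in wild type. Selenow, a small selenoprotein, was at 225 CPM in both, a log2 difference of 0.20 and 0.39.

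Beta-like cells fell into 6 clusters, formed without the 47 genes. The median shift of the antioxidant genes lay near that of all genes in them, while the counts past a fold limit did not always. The cluster led by Pdyn, Serpina7 and Ccl28 held 156 Malat1-null and 194 wild-type barcodes, or 8.74% and 21.2% of beta-like cells, and its insulin genes took 45.4% and 44.3% of UMIs. The cluster led by Slc2a2, Ppp1r1a and Cib3, with 333 and 20 barcodes, gave 64.9% and 62.2% of UMIs to insulin. Of the 31 tested genes, 31 were higher in the Pdyn-led cluster than in the remaining beta-like cells in Malat1-null and 28 in wild type. The share of all genes that were higher there was not counted. The median log2 difference of the 31 genes there was 0.45 in Malat1-null and 0.33 in wild type, against 0.52 and 0.29 for all 5651 tested genes. At 1.5-fold, 14 of the 31 were higher in the Pdyn-led cluster in Malat1-null (background 40.6%) and 4 in wild type (background 4.94%), and none was 1.5-fold lower (background 0.142% in Malat1-null and 0.159% in wild type). In the Slc2a2-led cluster the medians of the 31 genes were -0.36 and -0.46, against -0.37 and -0.45 for all genes, with 9 and 10 of the 31 lower at 1.5-fold (background 15.2% and 37.3%) and none higher (background 0.0354% and 0.814%). The medians lay furthest apart in the Gem-led cluster of Malat1-null (0.19 for members, 0.06 for all genes) and the Hspa1a-led cluster of wild type (-0.14 and -0.02). In the latter, 7 of the 31 were 1.5-fold lower (background 13.0%) and 1 was higher (background 10.0%).

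Relative to that shift of all genes, some members lay to the same side in a cluster of both libraries. In the Pdyn-led cluster Txnrd1 lay 0.42 above the shift in Malat1-null and 0.40 in wild type on the log2 scale, Srxn1 0.37 and 0.53, and Pgd, 6-phosphogluconate dehydrogenase of the pentose phosphate pathway, 0.43 and 0.46. In the cluster led by Hspa1a, Hspa1b and Hspb1, heat-shock genes, Sqstm1 lay 0.98 above it in Malat1-null and 0.43 in wild type, and Gstm1 at -0.78 and -1.23 from it. In the cluster led by Gem, Cebpd and Nfkbia, immediate-response genes, Sod2 lay 0.55 and 0.64 above it. These pairs of gene and cluster were picked without a stated limit. The share of all genes lying as far from the shift was not counted, so the pairs cannot be told from the scatter of other genes. They are descriptions of clusters within 1 library per genotype, with no test.

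**Figure D3:**
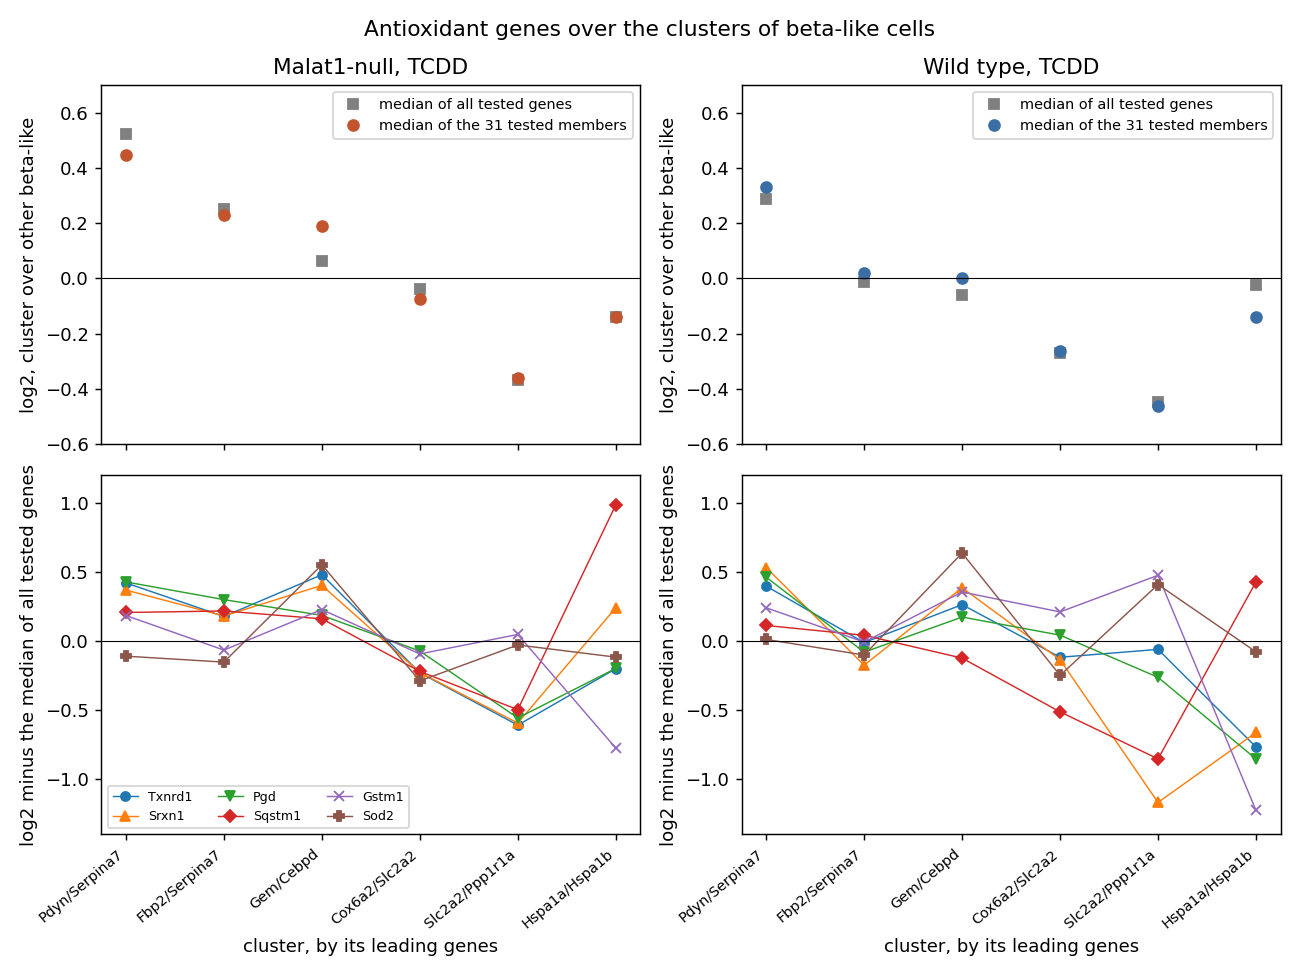
The 6 clusters of beta-like cells, named by their leading genes (x axis), in the Malat1-null (left) and wild-type (right) library. Above, the median log2 difference between a cluster and the other beta-like cells for the 31 tested members (coloured circles) and for all tested genes (grey squares), which lie close together, from 0.45 and 0.52 in the Pdyn-led Malat1-null cluster to -0.36 and -0.37 in the Slc2a2-led one. Below, the log2 difference of 6 members minus the median of all tested genes, with Sqstm1 highest in the Hspa1a-led cluster of Malat1-null (0.98).

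Between genotypes, none of the 31 tested genes differed 1.5-fold in beta-like cells. None was higher in Malat1-null (background 1.89% of 5651 genes, called at 1.5-fold with the interval on 1 side of 1), and none was lower (background 1.59%). The Malat1-null over wild-type ratio of these 31 genes ran from 0.781 to 1.34, with a median log2 ratio of 0.06 against 0.05 for all tested genes. Counting error was small at this depth, so that 14 of the 31 intervals lay above 1 and 10 below it, beside 42.8% and 23.2% of all tested genes. At the upper end, Keap1 had 77.4 CPM in Malat1-null and 57.8 CPM in wild type (ratio 1.34, 1.27 to 1.41) and Sqstm1 568 and 438.5 CPM (1.30, 1.27 to 1.32). Lowest was Gpx1, with 152 CPM in Malat1-null and 194.6 CPM in wild type (0.781, 0.756 to 0.807). Nfe2l2 was at 0.876 (0.820 to 0.938), and Cat, at 0.948 (0.723 to 1.25), did not differ beyond counting error.

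The roles did not move as blocks. Of 6 peroxiredoxins, 2 had an interval above 1 (Prdx5 and Prdx6) and 4 below it, with ratios from 0.820 for Prdx4 to 1.27 for Prdx6. Both tested glutathione peroxidases, Gpx1 and Gpx4, were below 1. Among the 3 tested genes of glutathione supply, Gclc (1.25) and Gclm (1.14) were above 1 and the interval of Gsr took in 1. For Prdx5 and Gclm the direction was the same under 10 of 11 alternatives, with a lowest log2 ratio of -0.07 for Prdx5 and -0.02 for Gclm. Of the thioredoxin genes, Srxn1 was at 1.21 and Txn1 at 0.863, and the intervals of Txnrd1 and Txn2 took in 1. The 8 tested genes with a TGACNNNGC match in their promoter window had a median log2 ratio of 0.09, and the 20 without one of 0.02.

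Among genes of 5 to 20 CPM in beta-like cells, a range chosen after the first results were seen, 3 of 8 members were 1.5-fold higher in Malat1-null (background 2.76% of 3949 genes) and none was lower (background 3.85%). Nqo1 (mm10 chr8:107388225-107403206, minus strand) was at 10.1 CPM in Malat1-null and 3.81 CPM in wild type, from 516 and 138 UMIs, a ratio of 2.65 (2.19 to 3.22), and its mean passed the minimum of 5 CPM through the Malat1-null level. Slc7a11 was at 13.0 and 6.55 CPM (1.99, 1.71 to 2.31), and Gpx3 at 18.5 and 8.98 CPM (2.06, 1.82 to 2.35). At lower levels, Gpx7 was at 1.37 CPM in Malat1-null and 0.636 CPM in wild type, from 70 and 23 UMIs (2.15, 1.33 to 3.61). Glucagon, the alpha-cell hormone, had the same order in beta-like cells, with Gcg at 35.9 CPM in Malat1-null and 15.2 CPM in wild type beside 143600 and 173200 CPM in alpha-like cells, and somatostatin (Sst) was at 14.5 and 5.67 CPM. Pancreatic polypeptide (Ppy) had the opposite order, 98.8 CPM in Malat1-null and 301 CPM in wild-type beta-like cells. The part of other hormone cells in the Gpx3 value was not tested. Nqo1 had no UMI in alpha-like cells of either library, and Slc7a11 was at 2.69 and 2.04 CPM there. Akr1b8, an aldo-keto reductase, went the other way at a lower level, with 1.62 CPM in Malat1-null and 3.399 CPM in wild type (0.477, 0.357 to 0.636).

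**Figure D4:**
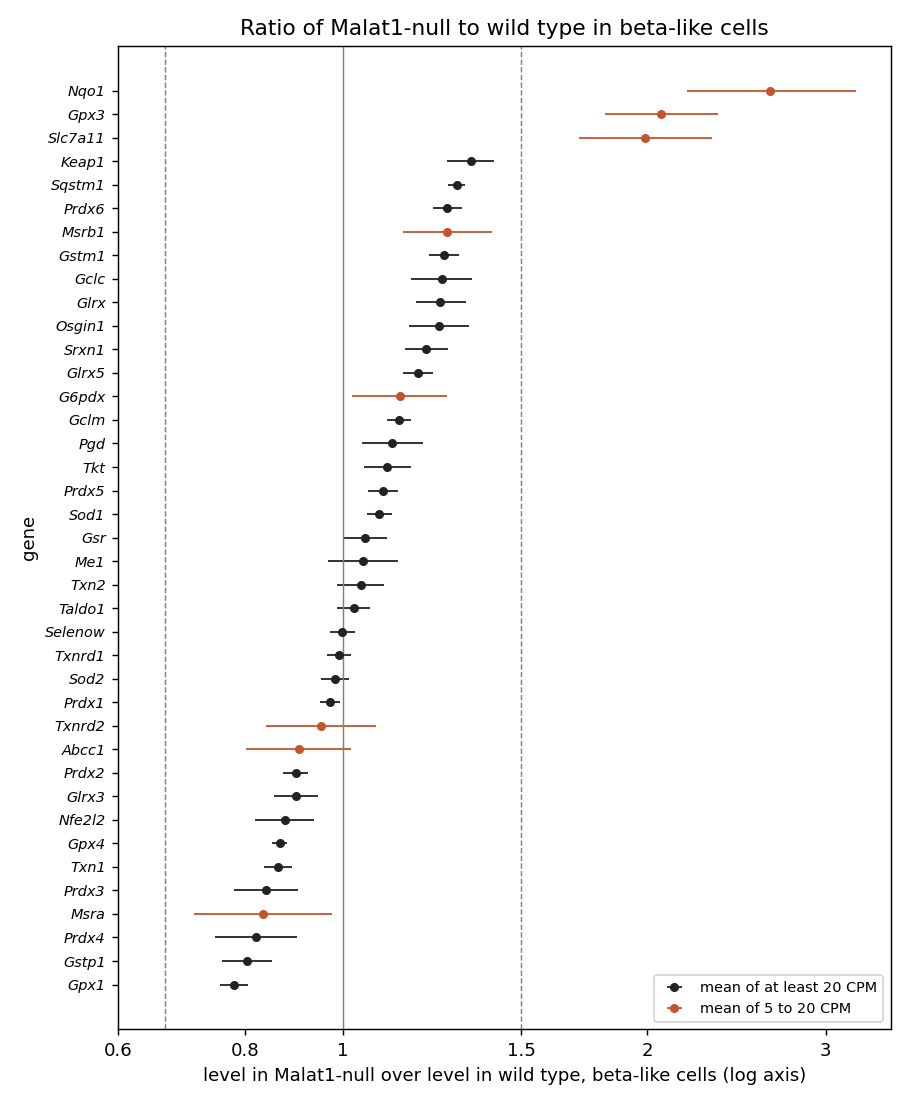
Ratio of the Malat1-null to the wild-type level in beta-like cells (log axis) with exact 95% counting intervals for members of at least 20 CPM (black) and of 5 to 20 CPM (orange), with dashed lines at 1.5-fold. All black points lie within 1.5-fold, from Gpx1 at 0.781 to Keap1 at 1.34, and Nqo1, Gpx3 and Slc7a11 lie beyond it.

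The make-up of the beta-like cells differed between the libraries, and some ratios were different within single clusters. The cluster led by Cox6a2, Slc2a2 and Ppp1r1a held the largest share in Malat1-null, 38.0% against 15.6% in wild type, and the cluster led by Fbp2, Serpina7 and Pdyn the largest in wild type, 10.8% in Malat1-null against 37.0%. Within the 6 clusters, compared after the first results were seen, the median log2 ratio of all tested genes was 0.34, 0.26, 0.15, 0.16, 0.31 and -0.07 in the clusters led by Pdyn, Cox6a2, Slc2a2, Gem, Fbp2 and Hspa1a. Each cluster was scaled with the factor of all beta-like cells of its library and not with a factor of its own. The part of this scaling in the median of a cluster was not tested. Sqstm1 was 1.64 to 1.91 times as high in Malat1-null in every cluster, and lay 0.40 to 0.89 above that median on the log2 scale, although its ratio over all beta-like cells was 1.30. Keap1 ratios ran from 1.40 to 1.76, with 5 of 6 intervals above 1. Nqo1 ratios ran from 1.52 to 3.83 and Gpx3 ratios from 1.91 to 3.61, each with 5 of 6 intervals above 1. Slc7a11 ratios ran from 1.70 to 4.86, with all 5 intervals above 1 of the clusters in which it was compared. These ratios include the shift of all genes. Above the median of all tested genes in a cluster, Keap1 lay 0.305 to 0.565 on the log2 scale and Nqo1 0.372 to 1.448. Gpx3 lay 0.617 to 1.743 above it and Slc7a11 0.383 to 2.101. Osgin1 ratios ran from 1.28 to 3.27 and Srxn1 ratios from 1.265 to 2.13, each with all 6 intervals above 1. Above the median of all tested genes Osgin1 lay only 0.012 in the Pdyn-led cluster and up to 1.434 in the others. Srxn1 lay 0.135 to 1.043 above it. The share of all genes with as many intervals above 1 was not counted. Gpx1 was below 1 in the Hspa1a-led (0.555, 0.492 to 0.624), Pdyn-led (0.742, 0.664 to 0.827) and Fbp2-led clusters (0.893, 0.824 to 0.968). Its interval took in 1 in the others, among them the Cox6a2-led cluster (1.07, 0.988 to 1.15). Nfe2l2, whose interval lay below 1 over all beta-like cells, had ratios above 1 in 5 of 6 clusters (0.857 to 1.99). All of its cluster intervals took in 1. From the median of all tested genes it lay between -0.377 in the Gem-led and 0.798 in the Slc2a2-led cluster, the latter on 6 wild-type UMIs. Of tested members, 5 of 35 were called higher in the Pdyn-led cluster (background 19.8%), 3 of 31 in the Cox6a2-led (8.14%), 2 of 29 in the Slc2a2-led (8.23%), 2 of 30 in the Gem-led (5.83%), 5 of 32 in the Fbp2-led (12.7%) and 6 of 31 in the Hspa1a-led cluster (4.12%). The 6 in the Hspa1a-led cluster were Srxn1, Gstm1, Pgd, Osgin1, Gclc and Sqstm1. None was called lower in the Pdyn-led (background 1.18%), Cox6a2-led (0.658%), Gem-led (1.18%) and Fbp2-led (0.805%) clusters, and 1 was in each of the Slc2a2-led (Txn1, background 2.45%) and Hspa1a-led (Gpx1, background 7.43%) clusters.

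Outside beta-like cells, endothelial-like cells, which carried the Cyp1a1 signal, had 6 of 38 tested genes 1.5-fold higher in Malat1-null (background 6.48%) and 1 lower (background 12.4%). The higher ones were Srxn1 (177 CPM in Malat1-null, 92.8 CPM in wild type, ratio 1.90, 1.53 to 2.37), Osgin1 (1.85), Gstp1 (1.82), Gpx8 (2.14), Prdx5 (1.71) and Msrb1 (2.50), a methionine sulfoxide reductase. Nqo1 was at 131 and 104 CPM (1.27, 1.00 to 1.59). The median log2 ratio was 0.26 for the 38 genes and -0.09 for all tested genes. These sums come from 39 Malat1-null and 87 wild-type barcodes, whose estimated share of free RNA was 1.61% and 10.4%, and the part of free RNA in them was not tested.

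Akr1b8 (mm10 chr6:34354119-34368463, plus strand) was lower in Malat1-null in 7 of the 8 types with 20 barcodes in both libraries and had no UMI in the eighth, B cell-like cells. Alpha-like cells held 3.37 CPM in Malat1-null and 37.8 CPM in wild type, from 5 and 37 UMIs (ratio 0.0891, 0.0273 to 0.227), and the wild-type UMIs came from 13 of 31 barcodes. Endothelial-like cells were at 16.2 and 56.3 CPM (0.287, 0.155 to 0.494) and acinar-like cells at 41.4 and 87.4 CPM (0.474, 0.215 to 0.939). Ductal-like cells, with 17 Malat1-null barcodes, held 26.7 and 77.8 CPM (0.343, 0.170 to 0.619). Mesenchymal-like cells, also with 17 Malat1-null barcodes, were at 36.1 CPM in Malat1-null and 31.8 CPM in wild type (1.14, 0.550 to 2.34). In 4 of the 8 types the interval lay below 1. Slc7a11 showed the opposite order, with more in Malat1-null in 7 of 8 types and no UMI in T or NK-like cells of either library, though of these the interval lay above 1 in beta-like and PP-like cells, and ductal-like cells had the reverse, 4.85 CPM in Malat1-null and 19.95 CPM in wild type.

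**Figure D5:**
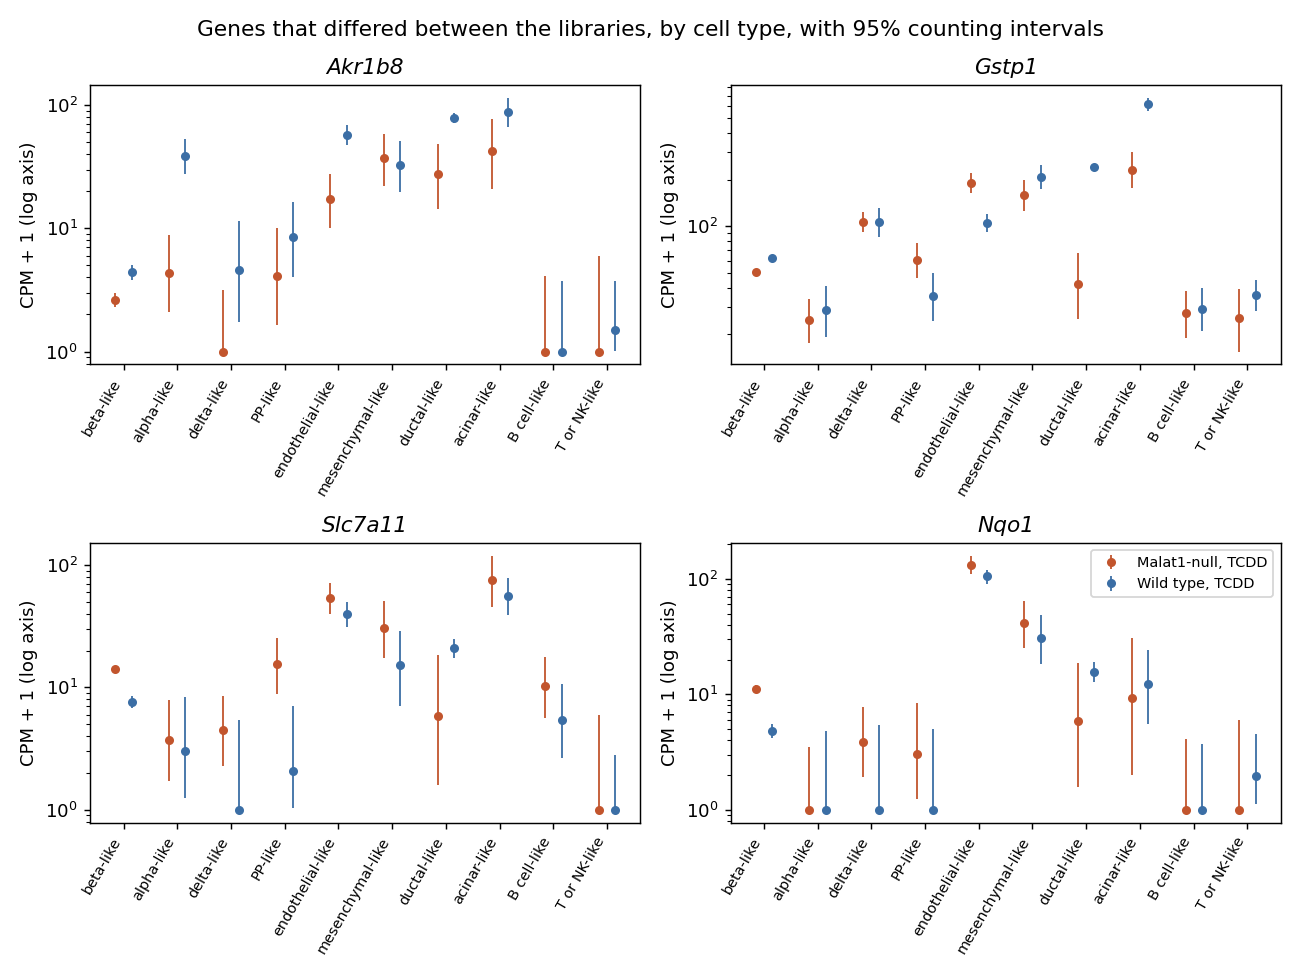
Levels of Akr1b8, Gstp1, Slc7a11 and Nqo1 as CPM + 1 on a log axis (points) with exact 95% counting intervals (bars) by cell type in the Malat1-null (orange) and wild-type (blue) TCDD libraries. Akr1b8 in alpha-like cells is at 3.37 CPM in Malat1-null and 37.8 CPM in wild type, Gstp1 is higher in Malat1-null in endothelial-like and lower in acinar-like cells, and Nqo1 is highest in endothelial-like cells of both libraries.

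Acinar-like cells had 2 of 35 higher in Malat1-null (background 6.93%) and 13 lower (background 21.8%), with a median log2 ratio of -0.60 for members and -0.33 for all tested genes, beside the free RNA shares given above. Their Glrx level, 53.8 CPM in Malat1-null (13 UMIs) and 1.62 CPM in wild type (1 UMI), stands beside an expected 16.3 and 6.40 CPM from free RNA. Ductal-like cells had none of 37 higher (background 1.93%) and 12 lower (background 16.3%), and mesenchymal-like cells 10 of 40 higher (background 10.9%) and 3 lower (background 11.7%), both on 17 Malat1-null barcodes. Markers of mesenchymal-like cells also differed, with Col1a1 at 25.5 CPM in Malat1-null and 545 CPM in wild type, Rgs5 at 115 and 850.5 CPM, and Dcn at 579 and 148 CPM. The part of unlike cell mixes in these counts was not tested. Alpha-like cells had 1 of 29 higher (background 6.26%) and 2 lower (background 3.75%): Txn2 was higher, and Gpx1 (90.3 CPM in Malat1-null, 153 CPM in wild type) and Akr1b8 were lower. Delta-like cells had 1 of 30 higher, Keap1 (background 6.0%), and none lower (background 3.08%). PP-like cells had 3 of 29 higher, Tkt, Gstm1 and Gstp1 (background 3.9%), and none lower (background 4.05%). T or NK-like cells had 1 of 28 higher, Tkt (background 5.2%), and none lower (background 5.55%). B cell-like cells had 2 of 27 higher, Keap1 and Msrb1 (background 5.62%), and 1 lower, Cat, at 15.2 CPM in Malat1-null and 27.5 CPM in wild type (0.555, 0.298 to 1.00), against a background of 4.76%.

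Another 50 genes of the same pathway that are no members were measured. In beta-like cells against the other types, none of the 34 tested was 2-fold lower in both libraries (background 3.25%) and 5 were higher (background 11.8%): Idh2, a mitochondrial source of NADPH, the selenoprotein Selenot, the stress-induced Sesn2, and the metallothioneins Mt1 and Mt2. Between genotypes none of the 35 tested was 1.5-fold higher (background 1.89%) and 3 were lower in beta-like cells lacking Malat1 (background 1.59%), where no member was. Txnip, which binds and inhibits thioredoxin, was at 90.7 CPM in Malat1-null and 186.5 CPM in wild type (0.486, 0.468 to 0.505). Mt1 was at 3585 and 9819 CPM (0.365, 0.363 to 0.367) and Mt2 at 722.5 and 2068 CPM (0.349, 0.345 to 0.354), and both are among the leading genes of the Hspa1a-led cluster, which held 4.15% of Malat1-null and 14.5% of wild-type beta-like cells.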

How the data were processed

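Islet cells of 2 libraries, Malat1-null and wild type, both with TCDD, were profiled with 10x Genomics 3′ sequencing. The authors deposited unfiltered raw UMI counts for each gene in each barcode. Per the file headers they were made with Cell Ranger 4, while the submitters' processing notes name Cell Ranger 2.1.0 and mm10; which applies could not be settled. Members and gene lists were chosen with earlier results of these data known.

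Barcodes of at least 1000 UMIs and at most 20% mitochondrial UMIs (286 Malat1-null and 69 wild-type barcodes were removed) were used. Scrublet (scanpy 1.11.5) called 8 and 17 doublets, 0.275% and 0.811%, and these were left out; undetected doublets may remain. The libraries shared 1 barcode, with 1.02 expected by chance. Clustering left out the 47 members, Malat1, sex-linked and mitochondrial genes (2000 variable genes, 30 components, 15 neighbours, Leiden resolution 1, igraph 0.11.9). Mixed clusters were divided once at resolution 0.5. Clusters were named from 14 marker lists with a scaled score of at least 0.7 and at least 3 markers at 20 CPM. A cluster of another type stayed unnamed where its Ins2 level reached 10% of the highest cluster. Beta clusters stayed unnamed where Gcg, Sst or Ppy did so. The same held where the leading genes went against the name. The naming limits were chosen once a first clustering was known. No cluster was named macrophage, Schwann, erythroid or granulocyte, and 447 Malat1-null and 113 wild-type barcodes stayed unnamed. Among the unnamed, a cluster of 26 Malat1-null and 9 wild-type barcodes scored as macrophage. Another, of 125 and 29 barcodes, scored as erythroid. Both were left unnamed for their insulin level.

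Summed UMIs of each type in each library were converted to CPM using edgeR 4.0.16 (TMM). Beta-like cells were set against the median of the other types with at least 20 barcodes, on log2 of CPM + 1, for genes with a mean of 20 CPM over types, and called at 2-fold in both libraries. Genotypes were compared per type for genes with a mean of 20 CPM, called at 1.5-fold with the exact conditional 95% interval on 1 side of 1. Levels have exact Poisson intervals. All intervals cover counting error only and leave out the choice of scaling. Ratios of beta-like cells to single types or to pooled hormone types were computed with TMM scaling only. Free RNA was estimated from barcodes of 10 to 100 UMIs, with insulin genes (non-hormone types) or acinar enzyme genes (hormone types). On simulated counts for beta-like cells, 50 of 50 genes raised 3-fold and 0 of 50 raised 1.2-fold were called, and 97 of 98 genes lowered 4-fold against the other types. The simulated counts held counting error alone, so they check the calling steps and say nothing of differences between preparations. All 47 members are described; those given in full are catalase, the peroxidases, peroxiredoxins, dismutases and Nqo1, and members past a fold limit. Coordinates are from GENCODE M21.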

Additional observations from a re-analysis of the deposited data

Results flagged for a closer look

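Gstp1, a glutathione S-transferase, was flagged because its difference between genotypes had opposite directions in different types. The Malat1-null over wild-type ratio was 1.82 (1.48 to 2.24) in endothelial-like cells and 1.73 (1.11 to 2.76) in PP-like cells, and 0.378 (0.280 to 0.501) in acinar-like cells. In beta-like cells it was 0.804 (0.760 to 0.852). The difference between types was not tested, since each genotype has 1 library. The estimated share of free RNA in acinar-like cells also differed, at 39.3% in Malat1-null and 11.3% in wild type, and its part was not tested.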

How the results depend on the processing

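Main values are 1 member lower and 1 higher in beta-like cells, and none between genotypes. Members lower in beta-like cells numbered 0 with a minimum of 5000 UMIs or scaling without hormone, enzyme, mitochondrial and Malat1 UMIs, 2 with the percentile-based minimum, resolution 2, libraries clustered alone, a 1.5-fold limit or without acinar-like, B cell-like and T or NK-like types, 3 with marker-based types or doublets kept, and 4 with total-count scaling. Members higher numbered 0 with the percentile-based minimum or total-count scaling, 2 with 5000 UMIs, marker-based types or without those 3 types, 3 with types of 20 barcodes in both libraries, 4 with the hormone-free scaling and 5 at 1.5-fold. Members higher in Malat1-null numbered 1 with the hormone-free scaling and with marker-based types. Total-count scaling moved the median of all genes against the other types from 0.27 to -0.65 in Malat1-null and from 0.20 to -0.57 in wild type, and between genotypes from 0.05 to -0.15 (log2). The Cat difference in Malat1-null turned to 0.268 with the percentile-based minimum and 0.093 without the 3 types; the cause was not tested. Of 1485 values of single members, 1188 moved by less than their interval. The 2 alternatives on the choice of types were added after seeing the data. No paired analysis was possible because each group has 1 library.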
